A study of Mus musculus with 84 samples.

Results

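The small leucine-rich proteoglycans are secreted proteins that sit on the surface of collagen fibrils. Their 7 genes examined here, Lum, Dcn, Bgn, Fmod, Ogn, Aspn and Prelp, were taken by symbol from a table of 18909 genes, and all 7 were found. The method was STRT RNA-seq, in which the 5′ end of each transcript is tagged before sequencing, and 10 groups of 3 biological replicates were measured. For each gene the reads of the wells of a replicate (3 wells, or 2 wells on day 10) were summed to 1 library, which gave 30 libraries.

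The groups covered the start, the course and the reference end state of reprogramming. MEFs, mouse embryonic fibroblasts of 129 background that carried no reprogramming cassette, were grown with FGF2 and heparin and without LIF. ESCs were cells of the single embryonic stem cell line TNG MKOS, which holds a GFP reporter at 1 Nanog allele and, in the Sp3 locus, the reprogramming factors MKOS (c-Myc, Klf4, Oct4, Sox2) under control of doxycycline and linked to mOrange, together with rtTA under the CAG promoter. Reprogramming cells were transgenic MEFs that descended from this line in chimeric embryos. They were plated as 5% of a mixture with wild-type MEFs, infected with a pMXs retrovirus for a blue fluorescent protein (Cont) or for the constitutively active Smad3CA (+Sm3CA), cultured in ESC medium with LIF, vitamin C and 300 ng/ml doxycycline, and sorted for mOrange on days 3, 6, 8 and 10. MEFs and day 3 cells therefore differed at once in medium, factor expression, infection, sorting for mOrange and the source of the cells, and these cannot be told apart.

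The family is grouped by sequence and gene structure. Dcn (decorin) and Bgn (biglycan) are class I proteins that carry chondroitin or dermatan sulfate chains, and Aspn (asporin) is their relative with a run of aspartates in place of the chain. Lum (lumican), Fmod (fibromodulin) and Prelp, which can carry keratan sulfate or no chain, belong to class II, and Ogn (osteoglycin) to class III. The core proteins bind fibrillar collagens and shape fibril diameter, and several of them also bind TGF-β, which acts through the receptors that phosphorylate SMAD3. Fibroblasts are a main source of these proteins in connective tissue, whereas pluripotent cells make little of them.

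Most of the 7 genes lie in small clusters with other family members. In GRCm38 coordinates (GENCODE annotation), Dcn (10:97479609-97518143) and Lum (10:97565128-97572703) are on the forward strand of chromosome 10 beside Kera and Epyc. Aspn (13:49544443-49567565) and Ogn (13:49608046-49624501) flank Omd on chromosome 13, while Prelp (1:133910304-133921414) and Fmod (1:134037254-134048277) lie on opposite strands of chromosome 1 near Optc. Bgn (X:73483602-73495933) stands alone on chromosome X. Aspn and Ogn lie within the opposite-strand gene Cenpp, and whether strand was used in counting is not given in the sources used here, so their reads and those of Cenpp cannot be told apart with certainty. The same limit holds for Prelp, which overlaps the opposite-strand antisense gene Gm15851, a gene without counts of its own here. Cenpp had 11 to 49 reads in a MEF or reprogramming library and 73 to 140 in an ESC library, whereas Aspn and Ogn had no read or 1 read in each ESC library.

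RefSeq promoters on GRCm38.p6 were matched for 5 of the 7 genes, and 4 are shown because their genes passed the test between MEFs and day 3, Bgn, Ogn and Aspn downward and Prelp upward. The 250 bases that precede the annotated start are given in the direction of transcription (Bgn at chrX:73483351-73483600, forward strand; Ogn at chr13:49607765-49608014, forward strand; Aspn at chr13:49544193-49544442, forward strand; Prelp at chr1:133921402-133921651, reverse strand). Capitals mark matches, on either strand, to the searched motifs, which were the SMAD boxes GTCTAGAC and CAGAC, the AP-1 motif TGANTCA, the TATA box with letters TATAAA, the CCAAT box, the GC box with letters GGGCGG and the E-box with letters CANNTG. The shares of all promoters that hold them were 0.213% and 49.6% for the SMAD boxes, 7.81% for AP-1 and 37.4% for the CCAAT box, and those of the others are given with the matches.
Bgn: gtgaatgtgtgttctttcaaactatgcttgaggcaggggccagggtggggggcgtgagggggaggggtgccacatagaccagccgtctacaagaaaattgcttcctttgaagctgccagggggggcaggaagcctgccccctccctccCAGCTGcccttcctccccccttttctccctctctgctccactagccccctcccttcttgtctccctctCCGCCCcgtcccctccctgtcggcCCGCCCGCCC
Ogn: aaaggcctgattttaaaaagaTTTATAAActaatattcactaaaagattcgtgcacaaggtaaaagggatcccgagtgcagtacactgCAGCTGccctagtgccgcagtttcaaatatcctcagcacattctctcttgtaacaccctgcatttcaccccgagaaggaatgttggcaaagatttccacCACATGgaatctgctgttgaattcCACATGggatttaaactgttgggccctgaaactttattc
Aspn: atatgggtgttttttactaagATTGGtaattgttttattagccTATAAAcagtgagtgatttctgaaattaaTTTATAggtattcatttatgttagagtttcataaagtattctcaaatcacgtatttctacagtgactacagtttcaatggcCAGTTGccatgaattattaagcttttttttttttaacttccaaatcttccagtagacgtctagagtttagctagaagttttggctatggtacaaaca
Prelp: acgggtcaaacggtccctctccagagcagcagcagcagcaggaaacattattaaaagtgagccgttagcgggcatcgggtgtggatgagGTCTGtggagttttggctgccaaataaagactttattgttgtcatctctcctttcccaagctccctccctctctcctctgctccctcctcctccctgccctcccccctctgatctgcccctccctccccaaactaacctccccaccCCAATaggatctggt

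Base composition differed widely among them. Over the window from 250 bases before to 50 after the start, Bgn held 3 GC boxes and 63.7% G or C, whereas Aspn held 31.0% G or C with 2 TATAAA matches and Ogn 42.3% with 2, against a median of 52.7% over all promoters. A GC box was present in 35.7% of 32851 promoters of the same length, and TATAAA in 13.6%. Prelp had 3 matches to CAGAC and Fmod 2, while Bgn, Ogn and Aspn had none. GTCTAGAC and TGANTCA were in none of the 5 windows. All 5 promoters held at least 1 E-box, as did 72.3% of all promoters. A match is a run of letters and was not tested as a binding site.

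Libraries held 1.01e+06 to 2.30e+06 reads, and levels are given as normalised read counts, that is, reads divided by the DESeq2 size factor of the library. A count of 3 reads, taken as the limit of detection in 1 library, corresponded to 1.79 to 5.42 normalised reads, and it limits counting only, since copies made by amplification are counted as separate reads. Smad3, whose reads combine the endogenous gene and the vector, stood at 8.22 ± 0.97 (SD, n = 3) in Cont and 69.5 ± 18.3 in +Sm3CA on day 8, higher in all 3 +Sm3CA libraries, as the labels say. All 3 Cont day 8 libraries and +Sm3CA day 10 replicate 1 stood apart by genes of myelin and choroid plexus. Mbp was at 1273, 147 and 184 normalised reads in Cont on day 8 and at 520.1 in +Sm3CA day 10 replicate 1, against 6.13 to 25.8 in +Sm3CA on day 8 and at most 33.9 in the remaining libraries. Ttr was at 892, 114 and 96.0 in Cont on day 8 and at 350.5 in +Sm3CA day 10 replicate 1, against at most 17.3 elsewhere. Markers of fibroblasts were all detected in MEFs and pluripotency markers in ESCs. Of 9 cartilage and tendon markers counted, 7 had reads in MEFs, led by Col2a1 at a mean of 63.7 normalised reads. The other markers, Col9a1 and Matn1, had no read there. In bulk libraries, fewer cells of a type and less RNA per cell cannot be told apart.

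**Figure D1:**
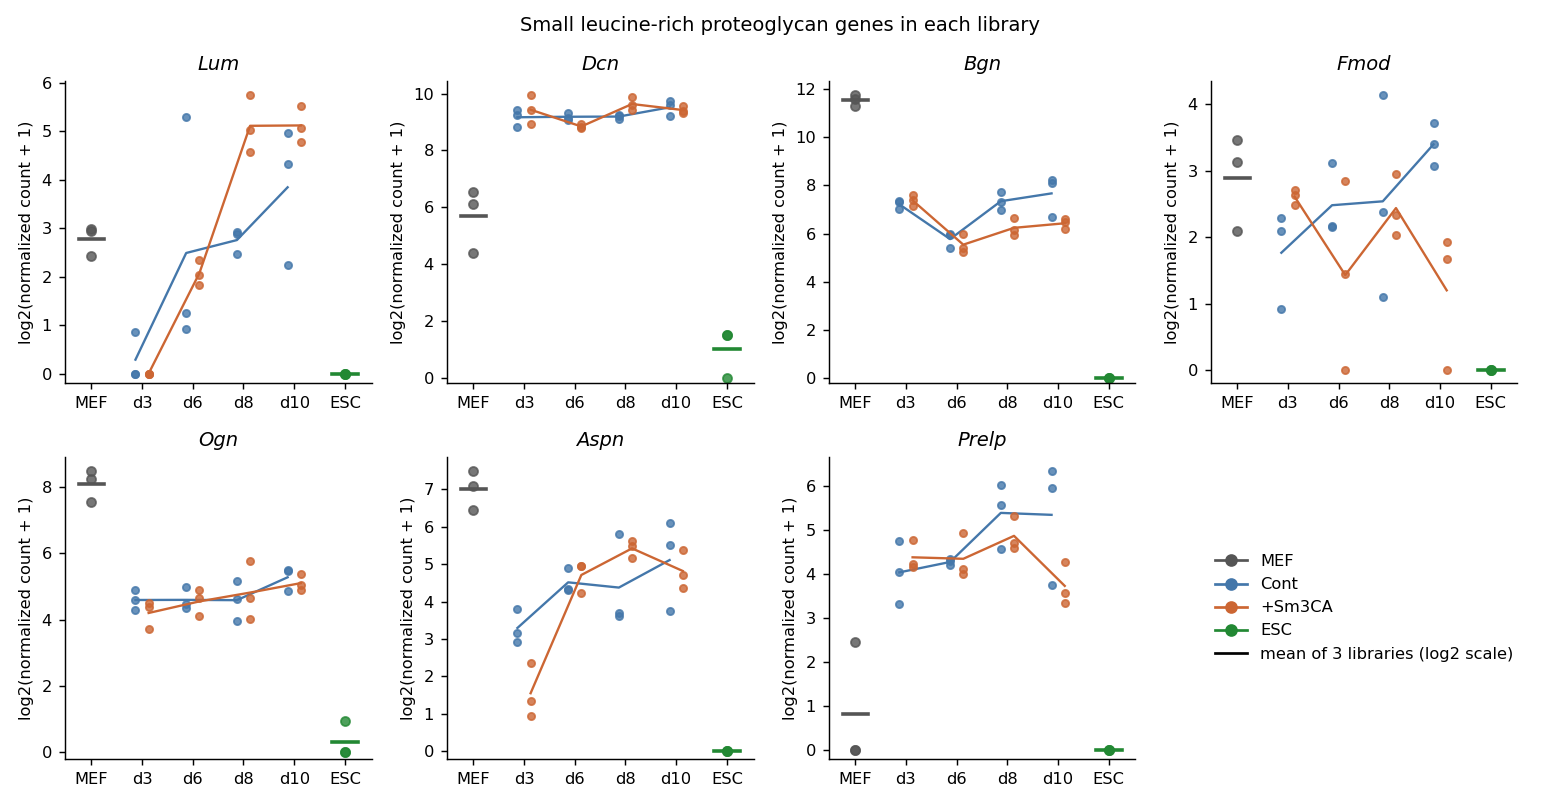
Level of each gene in every library, as log2(normalised read count + 1), for MEFs, Cont and +Sm3CA on days 3, 6, 8 and 10, and ESCs. Points are libraries, and bars (MEF, ESC) and lines (reprogramming series) pass through the mean of 3 libraries on the log2 scale. Bgn, Ogn and Aspn are highest in MEFs, Dcn and Prelp are higher in all reprogramming groups than in MEFs, and all 7 genes are at or near 0 in ESCs.

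Between MEFs and day 3 the family split. Bgn, Ogn, Aspn and Lum fell and Dcn and Prelp rose in both series, while Fmod did not pass the test. In Cont 6 of the 7 genes passed an adjusted p of 0.05 (edgeR quasi-likelihood test, adjusted over 10979 genes), as did 43.4% of all genes tested, and in +Sm3CA 6 of 7 passed against 43.1%. The median log2 change of the 7 genes was -3.47 in Cont, beside 0.00 (0.0014) over all genes. Marker lists moved in the same step. The fibroblast list went from 7036 to 9648 normalised reads in MEFs to 582 to 816 in Cont and 653 to 841 in +Sm3CA on day 3 (11 of 13 tested genes lower in each), and the smooth muscle list from 23290 to 34395 in MEFs to 782 to 1511 in Cont and 986 to 1464 in +Sm3CA (6 of 6 lower in each). The neural and glial list, led by Tubb3, went from 65.5 to 90.1 in MEFs to 358 to 549 in Cont and 478 to 645 in +Sm3CA, with 1 of 6 tested genes higher in each. The part of these cell types in the changes of the 7 genes was not tested. Both comparisons share the MEF libraries and are therefore given side by side and not as independent observations. Within the ordered levels of each gene, the MEF libraries of Bgn, Ogn and Aspn lay above those of every other group without overlap. The share of all genes that did so was not determined, so this order is not read as particular to the family. The same limit holds where single genes are said below not to overlap between MEFs and day 3.

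Bgn, which carries chondroitin or dermatan sulfate and is released as a ligand of Toll-like receptors, made up 86.0% of the reads of the 7 genes in MEFs. It stood at 3404, 3076 and 2467 normalised reads in MEFs, at 156, 161 and 127 in Cont on day 3 and at 166, 139 and 195 in +Sm3CA on day 3. The lowest MEF library was thus far above the highest day 3 library. The log2 change was -4.22 ± 0.29 (SE, n = 3 and 3, adjusted p = 1.5e-15, edgeR) in Cont and -4.04 ± 0.28 in +Sm3CA (adjusted p = 4.0e-15).

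Ogn, a class III member found in bone and many other connective tissues, fell with it. Its libraries held 360.0, 306 and 188 normalised reads in MEFs, 28.5, 23.3 and 18.7 in Cont on day 3 and 19.96, 12.1 and 21.9 in +Sm3CA on day 3, without overlap between MEFs and either series. The log2 change was -3.47 ± 0.34 (adjusted p = 3.1e-11) in Cont and -3.86 ± 0.35 (adjusted p = 3.7e-12) in +Sm3CA. Aspn, which competes with decorin for collagen, stood at 179, 136 and 85.6 in MEFs, at 8.02, 12.97 and 6.50 in Cont and at 1.54, 0.927 and 4.17 in +Sm3CA on day 3. Every day 3 library lay below every MEF library. Its log2 change was -3.78 ± 0.49 (adjusted p = 3.3e-08) in Cont and -5.78 ± 0.59 (adjusted p = 1.6e-10) in +Sm3CA, and it was -5.13 in Cont with 1 well per library and -6.51 in +Sm3CA without its replicate 3.

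Dcn, the best known regulator of collagen fibril diameter, went the other way. It stood at 67.8, 92.3 and 19.9 normalised reads in MEFs, at 455, 608 and 683 in Cont on day 3 and at 488, 985 and 683 in +Sm3CA on day 3. MEF replicate 3 was the lowest of the 3 MEF libraries, and no day 3 library came near them. Dcn rose by 3.42 ± 0.30 on the log2 scale (adjusted p = 1.1e-12) in Cont and by 3.72 ± 0.30 (adjusted p = 1.4e-13) in +Sm3CA.

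Prelp, a basic protein that links basement membranes to the matrix below, was hardly detected in MEFs. All 4 of its MEF reads came from replicate 1 (4.44, 0 and 0 normalised reads), against 8.91, 25.9 and 15.4 in Cont and 17.7, 16.7 and 26.1 in +Sm3CA on day 3. The groups did not overlap. The log2 change was 3.58 ± 0.78 (adjusted p = 2.7e-04) in Cont and 3.88 ± 0.76 (adjusted p = 5.9e-05) in +Sm3CA, but its size rests on that MEF library, since the fit gave 7.12 and 7.42 without MEF replicate 1 and 2.94 and 3.24 without MEF replicate 3.

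Lum and Fmod were low throughout the start of the course. Lum, the keratan sulfate proteoglycan of the cornea, stood at 6.67, 4.34 and 6.91 normalised reads in MEFs, while Cont on day 3 had 1 read in all (0, 0 and 0.813) and +Sm3CA on day 3 had none. From 18 MEF reads against 1, Lum was 18.9-fold lower in Cont. The exact 95% counting interval was 2.98 to 786, which leaves out the spread between replicates. In +Sm3CA Lum was at least 2.18-fold lower, taking 3 reads per library as the floor. It passed the test in both (adjusted p = 0.026 and 0.0073, edgeR), but not in Cont without MEF replicate 3 (0.065), Cont replicate 1 (0.088) or Cont replicate 2 (0.063), and in neither series with 1 well per library (0.087 and 0.089). Fmod, a close relative of lumican that binds collagen and TGF-β, stood at 10.0, 3.26 and 7.78 in MEFs against 0.891, 3.89 and 3.25 in Cont and 4.61, 5.56 and 5.22 in +Sm3CA, with overlap and no call (adjusted p = 0.22 and 0.74).

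The balance of decorin to biglycan reads turned over in this step. Since 5′ tags are not scaled by transcript length, the ratio is compared between libraries and says nothing of which protein was more abundant, and it was chosen after the values were seen. The ratio of Dcn to Bgn reads was 0.00806 to 0.0300 in MEFs, 2.91 to 5.38 in Cont on day 3 and 2.94 to 7.08 in +Sm3CA on day 3. On day 6 it was 9.26 to 13.3 in Cont and 7.89 to 11.9 in +Sm3CA, and thereafter the series separated. Cont libraries held a ratio of 2.87 to 4.38 on day 8 and 2.79 to 5.82 on day 10, below the 6.92 to 15.7 and 7.60 to 8.71 of +Sm3CA, with no overlap on either day. The ratio contains the Bgn reads whose difference on these days is given below, so it is not a separate observation.

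**Figure D2:**
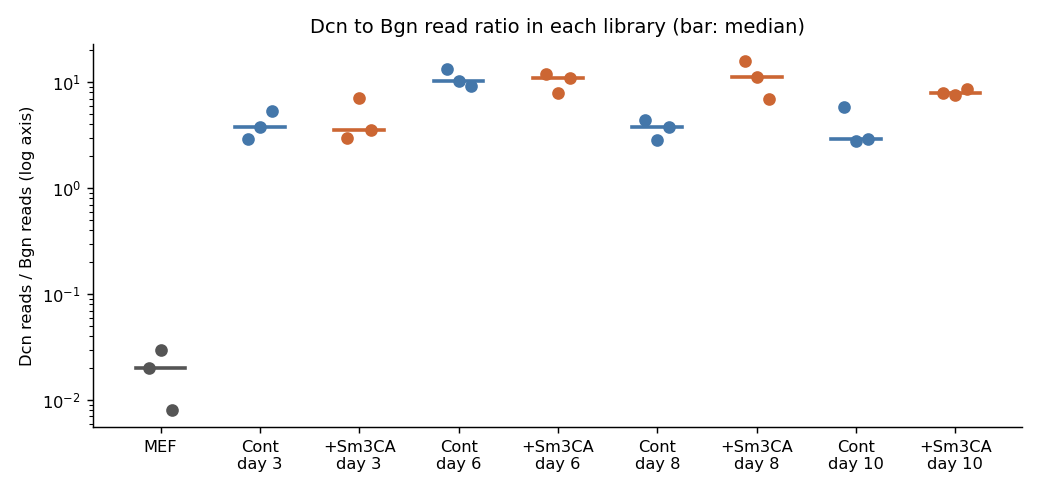
Ratio of Dcn to Bgn reads in each library (points, log axis) with the median of each group (bar) for MEFs and for Cont and +Sm3CA by day. All MEF libraries are at or below 0.0300 and all reprogramming libraries at or above 2.79, and the Cont and +Sm3CA libraries do not overlap on days 8 and 10. ESCs are not shown because Bgn had no read there.

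After day 3 the 7 genes followed different courses. For steps between days of a series, the share of all genes whose libraries did not overlap is not given. Absence of overlap in such a step is therefore not read as support for a change. Bgn dipped on day 6 in both series and in Cont rose again by day 8, Aspn and Lum rose over the course in both, Dcn fell and rose again in +Sm3CA, and Ogn and Fmod passed in no step. Between days 3 and 10, 3 of 7 genes passed in Cont (Lum, Aspn and Prelp, all higher; 25.3% of 10237 genes tested passed) and 3 of 7 in +Sm3CA (Lum and Aspn higher and Bgn lower; 33.7% passed). The median log2 change of the 7 genes over this time was 1.65 in Cont and -0.06 in +Sm3CA, beside 0.09 and 0.05 over all genes.

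Bgn stood at 40.8, 62.2 and 60.6 normalised reads in Cont on day 6 and at 36.8, 61.3 and 41.8 in +Sm3CA, below all day 3 libraries. The fall was -1.45 ± 0.27 (log2, adjusted p = 4.8e-04) in Cont, where 9.12% of all genes passed, and -1.80 ± 0.28 (adjusted p = 1.3e-05) in +Sm3CA, where 18.6% passed. By day 8 Cont libraries were at 126, 212 and 157, and the rise of 1.59 ± 0.27 passed (adjusted p = 3.1e-04, with 1.69% of all genes called). In +Sm3CA the day 8 libraries stood at 59.9, 69.8 and 98.5 and overlapped those of day 6, with a log2 change of 0.66 ± 0.28 that did not pass (adjusted p = 0.16). Over days 3 to 10 Bgn fell in +Sm3CA by 0.95 ± 0.27 (adjusted p = 0.0054), whereas Cont gave 0.59 ± 0.25 (adjusted p = 0.079). The Cont change passed without Cont day 10 replicate 1 (log2 0.91, adjusted p = 0.0025), with 1 well per library (0.047) or with no filter on low counts (0.038).

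Lum, at or under the floor on day 3, was higher later in both series. In Cont it stood at 1.38, 38.3 and 0.878 normalised reads on day 6, at 4.53, 6.33 and 6.56 on day 8 and at 3.70, 19.1 and 30.2 on day 10. The day 6 value was carried by replicate 2, whose 40 reads were spread over its 3 wells (9 to 18 reads each), so the call between days 3 and 6 (adjusted p = 0.0087) was lost without that library (0.61) and without Cont day 3 replicate 1 (0.054). From day 3 to day 10 reads rose from 1 to 51, a 58.8-fold ratio with a 95% counting interval of 10.1 to 2368 (adjusted p = 8.1e-04, edgeR). That interval covers counting only and not the spread between replicates.

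In +Sm3CA Lum rose between days 6 and 8. Its libraries held 2.56, 3.10 and 4.05 normalised reads on day 6, 31.5, 52.7 and 22.6 on day 8 and 44.9, 26.2 and 32.6 on day 10. Days 6 and 8 did not overlap, with a log2 change of 3.45 ± 0.75 (adjusted p = 0.0044, 6.68% of all genes called). Against day 3, where +Sm3CA had no read of Lum, day 10 was at least 12.6-fold higher and day 6 at least 1.18-fold higher. The step from day 3 to day 6 did not pass (adjusted p = 0.087). It passed with replicates paired over days (0.047), with no filter on low counts (0.0057) and with DESeq2's Wald test (0.036).

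Aspn rose after its low point on day 3. The Cont libraries went from 8.02, 12.97 and 6.50 normalised reads on day 3 to 18.7, 28.7 and 19.3 on day 6, 11.3, 54.9 and 11.9 on day 8, and 12.3, 44.2 and 66.9 on day 10. From day 8 on the replicates of Cont differed widely, with replicate 2 high on day 8 and replicate 1 low on day 10. The log2 change from day 3 to day 10 was 2.22 ± 0.51 (adjusted p = 0.0010), although the libraries overlapped, and it was 1.64 (adjusted p = 0.033) without Cont day 10 replicate 3 and 3.50 with 1 well per library. In +Sm3CA Aspn stood at 29.9, 17.9 and 29.7 on day 6, at 43.9, 34.9 and 47.6 on day 8 and at 40.7, 25.1 and 19.5 on day 10, all above day 3. It rose by 3.54 ± 0.67 from day 3 to day 6 (adjusted p = 2.1e-04) and by 3.68 ± 0.67 from day 3 to day 10 (adjusted p = 5.0e-05), which became 4.24 and 4.37 without +Sm3CA day 3 replicate 3.

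Prelp stood at 17.3, 19.1 and 18.4 normalised reads in Cont on day 6, at 22.6, 46.4 and 63.8 on day 8 and at 12.3, 80.1 and 60.3 on day 10. On day 10 replicate 1 was near the day 3 level and the other libraries were above it. The change from day 3 to day 10 passed (log2 1.65 ± 0.43, adjusted p = 0.0039) and was lost without Cont day 10 replicate 2 (1.18, adjusted p = 0.071). In +Sm3CA its libraries held 16.2, 29.5 and 14.8 on day 6, 22.9, 38.6 and 25.02 on day 8 and 18.2, 10.9 and 9.11 on day 10. Days 8 and 10 did not overlap, but neither that step (log2 -1.19 ± 0.47, adjusted p = 0.14) nor days 3 to 10 (-0.65 ± 0.50, adjusted p = 0.33) passed. Between days 8 and 10 no gene of the 7 passed in either series, where 2.4% (Cont) and 4.85% (+Sm3CA) of all genes did.

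Dcn kept its high level. The Cont libraries stood at 542, 644 and 561 normalised reads on day 6, at 550.2, 608 and 594 on day 8 and at 589, 769 and 864 on day 10, and the log2 change from day 3 to day 10 was 0.33 ± 0.19 (adjusted p = 0.20). In +Sm3CA it dipped to 436, 484 and 456 on day 6, stood at 942, 778 and 681 on day 8, and at 750.0, 673 and 635 on day 10. The fall from day 3 to day 6 (-0.63 ± 0.19, adjusted p = 0.017) and the rise from day 6 to day 8 (0.79 ± 0.19, adjusted p = 0.0087) both passed. The fall was lost with 1 well per library (adjusted p = 0.11) and without day 3 replicate 2 (-0.34, 0.29), day 6 replicate 1 (0.072) or day 6 replicate 3 (0.051), and the rise without day 6 replicate 3 (0.053) or day 8 replicate 1 (0.072).

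Ogn and Fmod passed in no step from day 3 to day 10. Ogn ranged from 12.1 to 21.9 normalised reads in +Sm3CA on day 3 and stood at 32.2, 40.4 and 28.6 on day 10. These libraries did not overlap, but the share of all genes that did the same is not given. The log2 change of 0.92 ± 0.38 did not pass (adjusted p = 0.058). It passed with replicates paired over days (0.047), in a fit of those groups alone (0.035) and with no filter on low counts (0.046). In Cont Ogn went from 28.5, 23.3 and 18.7 to 28.4, 44.2 and 43.3 (log2 0.71 ± 0.36, adjusted p = 0.15). Fmod had at most 13 reads in a reprogramming library except Cont day 8 replicate 3, which had 28, and its change from day 3 to day 10 was 1.87 ± 0.79 in Cont (adjusted p = 0.079) and -1.55 ± 0.96 in +Sm3CA (0.22).

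Cont and +Sm3CA were compared on each day to ask which of these genes differed between the 2 vectors. The excess of Smad3 reads in +Sm3CA was smaller late in the course. Smad3 stood at 133 ± 48.0 (SD, n = 3) in +Sm3CA and 10.9 ± 6.99 in Cont on day 3. On day 10 it stood at 41.6 ± 7.81 and 20.6 ± 5.37. Whether a late difference was a response to active SMAD3 was not tested. On days 3 and 6 none of the 7 passed, where 2 (0.0195%) and 1 (0.00977%) of 10237 genes passed in all, and at an unadjusted p below 0.05 the whole table gave 523 (5.11%) and 426 (4.16%) genes. DESeq2's Wald test also called none of the 7 on those days. On day 8 Lum was higher and Bgn lower in +Sm3CA (2 of 7, with 1.04% of all genes called), and on day 10 Bgn and Prelp were lower (2 of 7, with 3.58% called). The median log2 difference of the 7 genes was 0.33 on day 8 and -0.55 on day 10, beside 0.00 (-0.0034) and -0.01 over all genes.

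Bgn was lower in +Sm3CA on both late days. On day 8 the libraries given above (126, 212 and 157 in Cont and 59.9, 69.8 and 98.5 in +Sm3CA) did not overlap, and the log2 difference was -1.11 ± 0.26 (adjusted p = 0.024). On day 10 Cont stood at 101, 276 and 294 and +Sm3CA at 95.3, 88.5 and 72.9, again without overlap, although Cont replicate 1 was only just above. The difference was -1.37 ± 0.27 (adjusted p = 0.0011), which is 2.59-fold, and it passed under every alternative run, with log2 values between -1.70 and -1.10. On day 8 the call was lost without Cont replicate 2 (-0.90, adjusted p = 0.17), +Sm3CA replicate 1 (-0.96, 0.12) or +Sm3CA replicate 2 (-1.05, 0.13), and in a fit of those 2 groups alone (0.054).

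The difference of Bgn changed over the course. On day 3 it was 0.17 ± 0.25 on the log2 scale, and its change from day 3 to day 10 was -1.54 ± 0.37 (adjusted p = 0.025, edgeR interaction term). Bgn alone passed this test among the 7, where 1.01% of all genes did. Prelp passed it with no filter on low counts (log2 -2.28, adjusted p = 0.0025) and without Cont day 10 replicate 1 (-2.73, 0.0042). Prelp did not pass with size factors from DESeq2 (0.084) or with DESeq2's Wald test (0.13). A change of the difference with time is thus not read as particular to Bgn. Leaving out 1 library lost the call of Bgn for 7 of the 12 libraries (Cont day 3 replicates 1 and 3, Cont day 10 replicates 2 and 3, +Sm3CA day 3 replicate 3, and +Sm3CA day 10 replicates 2 and 3), with adjusted p values up to 0.13 and log2 values between -1.59 and -1.28. The same interaction from day 3 to day 8 passed for none of the 7 (Bgn -1.28 ± 0.36, adjusted p = 0.18; 0.0293% of all genes passed), and that from day 8 to day 10, added after the values were seen, passed for none (0.186% of all genes).

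Prelp was lower in +Sm3CA on day 10, at 18.2, 10.9 and 9.11 normalised reads against 12.3, 80.1 and 60.3 in Cont. The groups overlapped, since Cont replicate 1 lay between the +Sm3CA libraries. The log2 difference was -2.00 ± 0.46 (adjusted p = 0.0074), which is 3.99-fold, and the call was lost without Cont replicate 2 (-1.54, 0.11), +Sm3CA replicate 2 (-1.88, 0.062) or +Sm3CA replicate 3 (-1.80, 0.068). On day 8 the difference was -0.64 ± 0.38 (adjusted p = 0.45).

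Lum was higher in +Sm3CA on day 8, at 31.5, 52.7 and 22.6 normalised reads against 4.53, 6.33 and 6.56. The lowest +Sm3CA library stood above the highest Cont library. The log2 difference was 2.59 ± 0.66 (adjusted p = 0.045), a 6.01-fold difference. The call was lost with 1 well per library (0.16), without any 1 of Cont replicates 1 to 3 (0.11, 0.15 and 0.10) and without +Sm3CA replicate 1 (0.070) or 2 (0.21), while the log2 difference stayed between 2.19 and 2.81 in all alternatives. By day 10, when Lum had 3.70, 19.1 and 30.2 in Cont and 44.9, 26.2 and 32.6 in +Sm3CA, the groups overlapped and the difference was 0.93 ± 0.61 (adjusted p = 0.49).

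The other members did not pass on any day. Dcn on day 8 was at 681 to 942 normalised reads in +Sm3CA and 550.2 to 608 in Cont without overlap (log2 0.47 ± 0.19, adjusted p = 0.20), and on day 10 its difference was -0.10 ± 0.19, with an approximate 95% interval of -0.47 to 0.28. Fmod on day 10 stood at 7.41, 9.56 and 12.2 in Cont and 2.80, 2.18 and 0 in +Sm3CA, also without overlap (-2.47 ± 0.90, adjusted p = 0.13), a difference that rests on 27 reads against 4. Aspn on day 3 stood at 1.54, 0.927 and 4.17 in +Sm3CA, below the Cont libraries (-2.01 ± 0.78, adjusted p = 0.82). Fmod on day 3 was higher in +Sm3CA without overlap (0.95 ± 0.84, adjusted p = 0.99), and Dcn on day 6 was lower without overlap (-0.33 ± 0.19, adjusted p = 1.0). Over all genes, libraries did not overlap for 5.66% higher and 5.92% lower in +Sm3CA on day 3, for 6.41% lower on day 6, for 7.57% higher and 8.35% lower on day 8, and for 8.78% higher and 11.9% lower on day 10. Ogn on day 10 differed by -0.18 ± 0.36, with an interval of -0.88 to 0.53. Neither interval shows that the groups were alike.

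**Figure D3:**
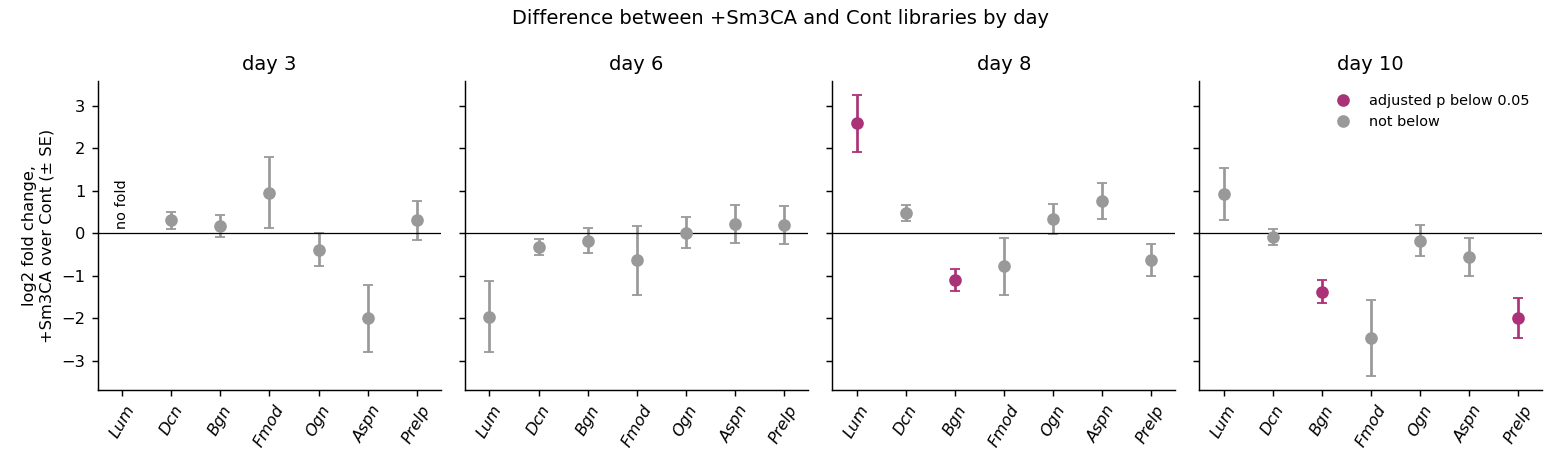
Log2 fold change of +Sm3CA over Cont for each gene (points, with SE) on days 3, 6, 8 and 10, with genes at an adjusted p below 0.05 in purple. Lum and Bgn pass on day 8 and Bgn and Prelp on day 10, and no value is shown for Lum on day 3, where both groups were at or under the floor of 3 reads per library.

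Markers of other cell types moved with some of these differences. On day 10 the fibroblast list of 14 genes, all with reads in Cont and +Sm3CA, summed to 881 to 2096 normalised reads in Cont and 701 to 956 in +Sm3CA, and 5 of its 12 genes tested were lower (Fn1, Col1a2, Col1a1, Postn and Prrx1) with none higher. Within Cont on day 10, replicate 1 had the lowest sum (881 against 2096 and 2017) and also the lowest level of each of the 7 genes. The macrophage and blood list summed to 630 to 2777 in Cont (629.6 in replicate 1) and 888 to 1596 in +Sm3CA, led by Lyz2, and 2 of its 7 genes tested were lower. Acta2 and Tagln, contractile genes of smooth muscle and myofibroblasts, were lower in +Sm3CA on both days (log2 -1.29 and -1.39 on day 8, -2.30 and -1.90 on day 10). The pluripotency list of 10 genes summed to 606, 407 and 999 in Cont on day 10 and to 1029, 1158 and 2292 in +Sm3CA, without overlap, and 3 of its 9 genes tested were higher (Tfcp2l1, Zfp42 and Dppa5a). On day 8 Mbp and Ttr were higher in every Cont library than in any +Sm3CA library, and Mbp, Ttr and Enpp2 passed the test as lower in +Sm3CA. The part of these cell types in the differences of Bgn, Prelp and Lum was not tested. Without both libraries richest in Mbp and Ttr, an alternative chosen after the values were seen, 1 of the 7 genes passed on day 8, since Lum did not (log2 2.46, adjusted p = 0.12). Cont replicates 2 and 3, whose Mbp (147 and 184) was above that of every +Sm3CA library on day 8, stayed in that alternative.

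ESCs had almost no reads of the family. Over the 3 ESC libraries Dcn had 2, 1 and 0 reads and Ogn 1, 0 and 0, and the other 5 genes had none. From Cont on day 10, all 7 genes were lower in ESCs (51.8% of 10979 genes passed in either direction), from +Sm3CA on day 10 all but Fmod (45.8% of all genes), and from MEFs all but Prelp (59.6%). The call of Lum from MEFs was lost with 1 well per library (adjusted p = 0.099). With 3 reads per ESC library as the floor, Bgn was at least 744-fold lower than in MEFs, at least 55.9-fold lower than in Cont on day 10 and at least 21.4-fold lower than in +Sm3CA on day 10. Dcn was 609-fold lower than in Cont on day 10 (95% counting interval 208 to 2953) and 553-fold lower than in +Sm3CA (189 to 2684). Both intervals cover counting only and not the spread between replicates. For Prelp the bound was 12.7-fold from Cont and 3.18-fold from +Sm3CA, and for Aspn 10.3-fold and 7.10-fold. On day 10 the mOrange-sorted cells of both series still held 518 to 1014 (Cont) and 588 to 696 (+Sm3CA) reads of the 7 genes per 1e+06 reads, against 0 to 1.47 in ESCs and 1927 to 2250 in MEFs.

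The other family genes were close to undetected in these cells. Among 10 further members in the table, Tsku had 174 reads over all 30 libraries, Ecm2 55, Podn 33, Omd 12, Chadl 11, Podnl1 7, Epyc 4, Nyx 4, Kera 1 and Optc 1. Only Tsku passed the filter, and it did not differ between +Sm3CA and Cont on day 8 or day 10 beyond the threshold (adjusted p = 0.19 and 0.38). Kera and Epyc thus had hardly a read although Dcn, their neighbour on chromosome 10, had at least 338 reads in each reprogramming library. Omd had at most 4 reads in a library, whereas its neighbour Ogn had at least 12 in each MEF and reprogramming library and Aspn had 1 to 4 reads in the +Sm3CA day 3 libraries.

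Genes that make, bind or process these proteins are given by list, as counts past the threshold. From MEFs to Cont on day 3, 18 of 20 tested genes for the collagens bound by the family and their crosslinking were lower and none higher (43.4% of all genes were called), among them Lox, the oxidase that crosslinks collagen (1404 to 161 normalised reads, log2 -3.00 ± 0.26), and Col5a2 (-3.16 ± 0.25). Of 17 tested genes for the linker and for chondroitin and dermatan sulfate chains, 10 were lower and 1 higher, with Chsy1, a chain polymerase, at -1.27 ± 0.32 and Fam20b, the xylose kinase of the linker, at -0.01 ± 0.33. Keratan sulfate genes (1 lower and 1 higher of 6), supply of sugar nucleotides and sulfate donors (2 lower and 1 higher of 11) and large proteoglycans (2 lower and 1 higher of 7) had fewer genes past the threshold. Of the proteinases, which include Bmp1, a processor of procollagen and of probiglycan (-2.65 ± 0.34), 5 of 7 were lower and 1 higher. Receptors and ligands bound by the family were lower in 9 of 15 with 1 higher, and cell surface proteoglycans in 8 of 11.

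On day 8 no gene of these lists passed the threshold between +Sm3CA and Cont, except Smad3 in the list of 11 tested SMAD pathway genes. On day 10, where 3.58% of all genes passed, 8 of 19 genes of the collagen list were lower in +Sm3CA and none higher, with a median log2 difference of -1.04 beside -0.01 over all genes. Lox fell from 289 ± 112 (SD, n = 3) in Cont to 96.7 ± 27.3 in +Sm3CA (log2 -1.57 ± 0.25, adjusted p = 1.1e-04), and Col5a2, Fbn1 and Col5a1 differed by -1.22 ± 0.24, -1.07 ± 0.22 and -2.00 ± 0.42. The number was 5 without Cont replicate 2, without Cont replicate 3 or without +Sm3CA replicate 3. Among receptors and ligands, 3 of 13 were lower, namely Itgb1 (-0.87 ± 0.17), Wisp1 (-1.16 ± 0.26) and Lrp1, the endocytic receptor of decorin (-1.28 ± 0.36). Cell surface proteoglycans had 3 of 11 lower (Cd44 -0.81 ± 0.17, Gpc4 -1.72 ± 0.38 and Cspg4 -1.96 ± 0.52).

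For the synthesis lists on day 10 few genes passed. B4galt1, a galactosyltransferase of keratan sulfate chains, was lower in +Sm3CA (-1.12 ± 0.33, adjusted p = 0.047; 1 of 6), as were Bmp1 (-1.20 ± 0.35, adjusted p = 0.046; 1 of 6) and Srgn, the proteoglycan of blood cell granules (-1.61 ± 0.43, adjusted p = 0.024; 1 of 5). None of the 12 tested genes for chondroitin and dermatan sulfate chains passed (Chsy1 and Fam20b included), nor did any of the 10 for sugar nucleotide and sulfate donor supply, of which Ugp2 and Impad1 had the most reads.

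**Figure D4:**
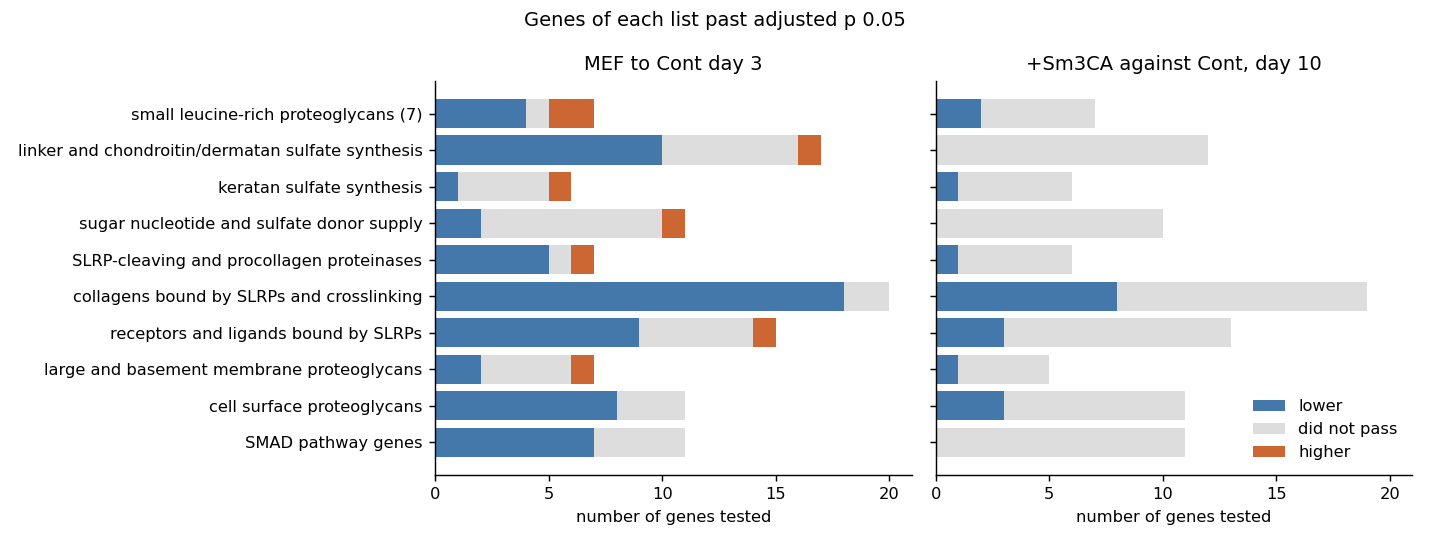
Number of tested genes of each list that were lower (blue), higher (orange) or did not pass an adjusted p of 0.05 (grey), from MEFs to Cont on day 3 (left) and between +Sm3CA and Cont on day 10 (right). SLRP stands for small leucine-rich proteoglycan, and the collagen list has the most lower genes in both panels (18 of 20 and 8 of 19).

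Genes whose levels followed each member most closely were ranked by Pearson's r over the 10 group means of log2(normalised read count + 1), as a description without a test, because groups share libraries' depth and the large step from MEFs to ESCs. For Bgn they were Dap, Col1a1 and Lox (r = 0.996, 0.993 and 0.992), and for Ogn Pbxip1, Tmx3 and Hoxa10 (0.995, 0.995 and 0.989). Dcn was nearest to Aste1, Flad1 and Syngr2 (0.991, 0.989 and 0.988). Lum was nearest to Npepl1, Wsb1 and Lpin1 (0.966, 0.957 and 0.944), Prelp to Gpr133, Nhsl1 and Ces1f (0.982, 0.978 and 0.977), and Fmod, which had few reads, to Erap1, 2310047M10Rik and Il4ra (0.923, 0.919 and 0.917). No member was among the 3 nearest genes of another, and Dcn and Lum, neighbours on chromosome 10, shared none of them.

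The spread between replicates was larger than that between wells. Taking wells of a library with at least 10 reads of the gene, the variance of reads over that of pure counting was 1.92 for Dcn, 1.54 for Bgn, 1.02 for Aspn, 0.886 for Prelp and 0.822 for Ogn. Between the 3 libraries of a group with at least 30 reads, it was 24.7, 17.4, 9.86, 5.48 and 6.78. For Lum, with fewer such libraries, the values were 1.21 between wells and 15.9 between replicates. Wells of Ogn, Aspn and Prelp thus differed by about counting error, whereas those of Dcn and Bgn differed by more. For all of these genes, Lum included, the spread between replicates was larger. Exact permutation tests of 3 libraries against 3 cannot go below p = 0.10, which was the value for every pair of groups without overlap, and they are not given for single genes.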

How the data were processed

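Raw read counts per gene and well, as deposited by the authors, were made by the automated STRT pipeline. The submitters' notes name Bowtie 0.12.9, mm10 and DESeq2 1.6.3, and the annotation is not given in the sources used here. The 84 wells, matched to samples by label, gave 30 libraries (1.01e+06 to 2.30e+06 reads, and 195330 to 902989 in a well).

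Normalised counts used DESeq2 1.42.0 size factors. Differences were tested with edgeR 4.0.16 in R 4.3.3 (TMM, filterByExpr, glmQLFit, glmQLFTest) with Benjamini-Hochberg adjustment over all genes and a threshold of 0.05. The 24 reprogramming libraries formed one fit (10237 genes), and all 30 formed the fit for MEFs and ESCs (10979 genes). SE is the log2 change divided by the root of F. The edgeR steps were tested on simulated data.

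The design text of the series pairs replicate numbers over days within each series. Same-numbered libraries of a series correlated by -0.07 to 0.12 in their deviations (36 pairs). The named genes were all 7 members, Smad3, the 3 genes most alike to each member (those of Aspn are not reported here), and from each list up to 4 genes called on day 8 or 10, otherwise the 2 with most counts. Members, lists and tests were chosen with earlier results of these data known. Alternatives were edgeR with size factors from DESeq2, no filter on low counts, DESeq2's Wald test, fits of the compared groups alone, the replicate block, 1 well per library and leaving out each library. Leaving out both libraries richest in Mbp and Ttr and the interaction from day 8 to day 10 were added after the data were seen.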

Additional observations from a re-analysis of the deposited data

Results flagged for a closer look

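The difference between +Sm3CA and Cont in Bgn changed from day 3 to day 10 by -1.54 on the log2 scale (SE 0.37, adjusted p = 0.025, edgeR interaction term), which flagged it as an effect that differed between days. The difference was 0.17 ± 0.25 on day 3 and -1.37 ± 0.27 on day 10, where +Sm3CA was lower in 3 of 3 libraries than every Cont library. Cont replicate 1 (101 normalised reads) was only just above +Sm3CA replicate 1 (95.3) on that day. The interaction call depended on single libraries, since leaving out 1 of the 12 gave adjusted p values up to 0.13 (edgeR).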

How the results depend on the processing

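Depth limits Lum and Fmod most, since 3 reads correspond to 1.79 to 5.42 normalised reads and both genes had few reads in most libraries. Of the single-gene values chosen for this check, 219 kept their direction and call and 4 lost the call under the alternatives other than leaving out 1 library (1 of the 4 is Lum on day 8 without both libraries richest in Mbp and Ttr), and leaving out 1 library gave 194, 24 and 4 that changed sign. Changes given as bounds or ratios of reads are not in these counts, and of these Lum lost its calls from MEFs to Cont, +Sm3CA and ESCs with 1 well per library (adjusted p = 0.087, 0.089 and 0.099). Steps of single genes that were not chosen are left out too, and some of them gained a call. Aspn in Cont from day 3 to day 6, for example, passed with no filter on low counts (adjusted p = 0.020, edgeR) and in a fit of those groups alone (0.012). Between +Sm3CA and Cont on day 8, 1 gene in place of 2 passed with the DESeq2 Wald test (which gave no adjusted p for Lum), with only the groups compared, with 1 well per library and without both libraries richest in Mbp and Ttr, and 0 to 2 passed when 1 library was left out. On day 10 the range was 1 to 2. With no filter on low counts, 2 genes passed for the change of the difference from day 3 to day 8 (0 with the filter) and 2 from day 3 to day 10 (1 with the filter, and 0 to 2 without 1 library). In Cont, leaving out 1 library gave 1 to 2 genes from day 3 to day 6, 1 to 2 from day 6 to day 8 and 0 to 1 from day 8 to day 10, where Aspn passed without Cont day 8 replicate 2 (log2 1.82, adjusted p = 0.034). From day 6 to day 8, 2 in place of 1 passed with no filter, with only the groups compared and without both libraries richest in Mbp and Ttr. In +Sm3CA the range was 1 to 2 from day 6 to day 8, and 1 gene passed from day 8 to day 10 with no filter. The collagen list had 5 to 11 genes called on day 10. Of the 21 most alike genes, 12 were shared with rlog means. The differences that changed sign without 1 library had not passed the test: Fmod on day 8 ranged from -1.21 to 0.75, Ogn on day 8 from -0.30 to 0.67, Dcn on day 10 from -0.22 to 0.049 and Aspn on day 10 from -0.95 to 0.027. The cause was not tested.

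With the replicate block, Lum passed from day 3 to day 6 in +Sm3CA (log2 4.84, adjusted p = 0.047) and Ogn from day 3 to day 10 (0.96, adjusted p = 0.047), so that 4 genes passed in each of those steps, and the block changed no other call among the 7 genes. The block paired replicate numbers within a series only for steps inside that series. In all other comparisons it paired equal numbers across groups. The interactions, that of Bgn included, were therefore not fitted with pairing within each series. The sources do not say that replicate numbers pair +Sm3CA with Cont, and same-numbered libraries of a day correlated by -0.10 to 0.08. With the block 2 genes passed on day 8 and 2 on day 10.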
